A study of Homo sapiens with 12 samples.

Results

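The genes described here code for heat shock proteins and for the J-domain proteins that work with them. They were chosen by gene name alone: a row was taken when its symbol began with HSP90A, HSP90B, a heat shock protein prefix (HSPA, HSPB, HSPD, HSPE or HSPH) and a digit, or DNAJA, DNAJB or DNAJC and a digit, and it was left out when the name ended in P and digits or held a hyphen. Of 20771 genes in the count table, 107 matched the pattern, 30 and 3 of these were left out by the name rules, and 74 remained. They comprise 3 HSP90 genes, 14 HSPA genes of the HSP70 family, 1 HSPH gene, 3 HSPB genes, the chaperonin genes HSPD1 and HSPE1, 4 DNAJA, 11 DNAJB and 28 DNAJC genes, and 8 HSP90 rows whose names end in P alone and which GENCODE lists as processed pseudogenes. By the main location of their proteins, 29 were assigned to the cytosol and nucleus, 13 to the endoplasmic reticulum (ER), 8 to the mitochondrion and 5 to vesicles and endosomes, and 19, the pseudogenes among them, were not assigned.

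The RNA came from EW8-RRM1-KO and TC71-RRM1-KO, a pair of Ewing sarcoma cell lines. In both lines, and so in every group compared, the endogenous gene for RRM1, the catalytic subunit of ribonucleotide reductase, had been knocked out with CRISPR/Cas9, single cells had been cloned under hygromycin, and growth depended on a codon-optimized RRM1 transgene that doxycycline switches on. Cells labelled 0 h were kept with doxycycline and cells labelled 48 h had been without it for 48 hours. Each line had 3 libraries at each time, 12 in all, and the comparison asks how the RNA of these genes changed when the transgene was switched off. Each line is a clone, so a difference between the lines cannot be told apart from a difference between clones. Nothing in the sources says that replicates came from separate cultures, so p-values measure only the spread between these libraries.

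Chaperones bind unfolded or partly folded proteins and help them to reach or keep their folded state. HSP70 proteins do so in cycles of ATP hydrolysis that J-domain proteins (the DNAJ families) start and that nucleotide exchange factors such as the HSP110 proteins end, and J-domain proteins also choose the clients and the place. HSP90 acts later, on kinases, steroid receptors and other clients that are nearly folded, and the chaperonin HSP60 with its lid HSP10 encloses proteins in the mitochondrial matrix. Several of the cytosolic genes are known targets of heat shock factor 1 (HSF1), and many ER chaperones are induced by the unfolded protein response. Cancer cells depend on HSP90 and HSP70 to keep mutated and overproduced proteins folded.

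The libraries held between 18468485 and 35698991 counts. Values are given below as normalised read counts on the CPM scale, with library sizes corrected by the trimmed mean of M-values (TMM). The row of RRM1 stood at 9.37, 9.51 and 9.67 CPM in EW8 at 0 h and 63.9, 72.6 and 74.1 at 48 h, and at 15.7, 15.5 and 17.3 in TC71 at 0 h and 25.7, 26.4 and 24.1 at 48 h, so it was higher without doxycycline. Whether reads of the codon-optimized transgene entered this row is not given in the sources used here, and the row therefore checks no label. The Ewing sarcoma genes CD99, FLI1, NKX2-2, NR0B1, LIPI and STEAP1 were detected in every library, between 7.33 CPM for NKX2-2 and 343 CPM for CD99. They also moved with time. At 48 h FLI1 was lower in EW8 and TC71 (log2 fold change -0.72 and -0.41) and CD99 was lower in EW8 (-0.45). NKX2-2, NR0B1, LIPI and STEAP1 were higher in both lines, with NR0B1 at 0.98 in EW8. Of genes that mark other cells, the leukocyte gene PTPRC stayed at or under 0.219 CPM, and the fibroblast genes COL1A1 and DCN rose with time, from between 9.64 and 12.8 to between 33.5 and 42.2 CPM for COL1A1 in EW8 and from between 18.9 and 21.5 to between 29.1 and 35.9 in TC71. COL1A2 and CD74 were looked for too, but the count table has no row under these names. The part of other cells in the values below was not tested.

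At 0 h the chaperone genes took 1.78% ± 0.0706 of all counts in EW8 (SD, n = 3) and 1.55% ± 0.0184 in TC71. At 48 h the share was 1.30% ± 0.0209 in EW8 and 1.49% ± 0.0321 in TC71. The libraries of the 2 times did not overlap in either line. The HSP90 family went from 0.779% ± 0.0274 to 0.50% ± 0.0110 of all counts in EW8, the HSPA genes from 0.482% ± 0.0261 to 0.331% ± 0.00518, and HSPD1 and HSPE1 together from 0.205% ± 0.00799 to 0.110% ± 0.00311. The summed share of the DNAJC genes went the other way, from 0.132% ± 0.00354 to 0.159% ± 0.00303, and so did that of the DNAJB genes, from 0.0479% ± 0.00138 to 0.0628% ± 0.000956. A sum is weighted by its most abundant genes. Of the 26 tested DNAJC genes, 8 were higher and 8 lower in EW8 at an adjusted p below 0.05. Their median log2 fold change was -0.03, while DNAJC3 was at 1.34. HSP90AA1, HSP90AB1, HSPA8 and HSPD1 alone held 1.19% ± 0.0499 of all counts in EW8 at 0 h and 0.663% ± 0.0140 at 48 h. By compartment, the cytosol and nucleus went from 1.23% ± 0.0524 to 0.793% ± 0.0115 of the counts in EW8 and the mitochondrion from 0.319% ± 0.0111 to 0.253% ± 0.00418, while the ER share was 0.195% ± 0.00672 at 0 h and 0.208% ± 0.00444 at 48 h. In TC71 the HSP90 share was 0.590% ± 0.00615 at 0 h and 0.574% ± 0.0132 at 48 h, with overlap. The HSPA share there went from 0.467% ± 0.00781 to 0.421% ± 0.00930. These sums were not tested. In RNA from a whole culture, fewer cells with a transcript and less of it per cell cannot be told apart.

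**Figure D1:**
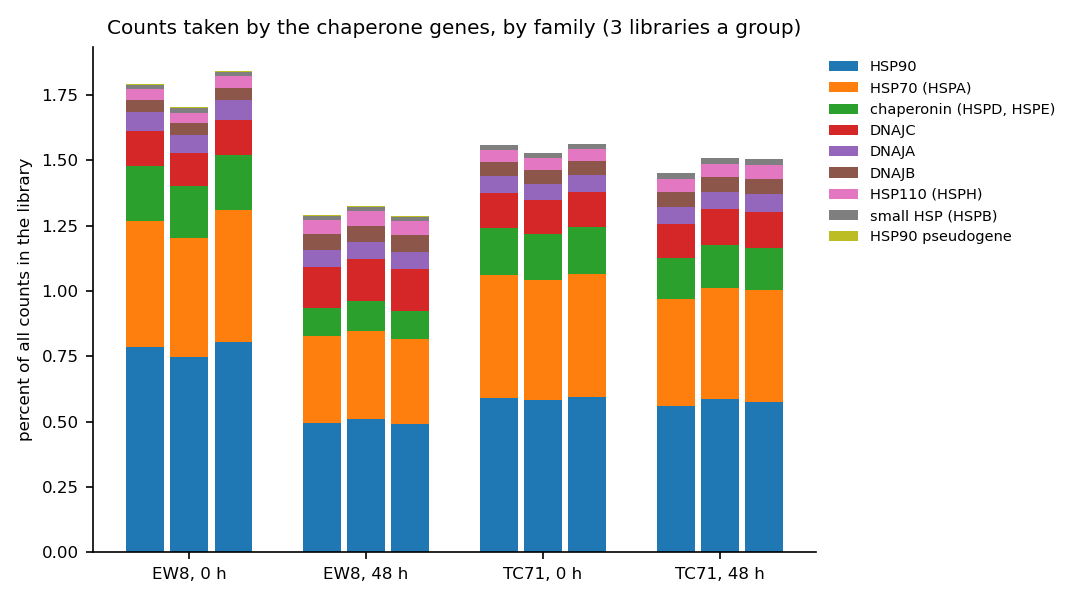
Percent of all counts in each of the 12 libraries taken by the chaperone genes (y axis, from 0), stacked by family, with 3 libraries for each line and time on the x axis. The HSP90, HSPA and chaperonin segments are shorter in the EW8 libraries at 48 h, where all families together take 1.29% to 1.32%, against 1.7% to 1.84% at 0 h.

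Per length, as CPM per kilobase of merged exons averaged over the 12 libraries, HSP90AB1 stood highest at 846. HSP90AA1 followed at 561, HSPA8 at 440.5 and HSPD1 at 208. DNAJA1, a cytosolic partner of HSP70, was the highest J-protein gene on this scale at 136. The next levels per kilobase were 108 for HSPA9, the HSP70 of the mitochondrion, 86.5 for HSPB1, the small heat shock protein also named HSP27, and 72.3 for HSPA5, the HSP70 of the ER. In all 4 groups the order of the first 4 genes on this scale was the same, and in EW8 at 48 h HSPA9 (112 per kilobase) stood above DNAJA1 (108).

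A member was tested if it passed a filter on low counts, and 67 of the 74 did. Below, upregulated and downregulated mean a fold above 2 together with a Benjamini-Hochberg adjusted p under 0.05 in edgeR, and risen and fallen mean that adjusted p alone. Groups said to be apart have no overlap between their libraries. Between the 2 times this held, in either direction, for 71.1% of all genes in EW8 and 49.6% in TC71. Of the 67 tested members it held for 51 in EW8 and 36 in TC71. In EW8, 8 members were upregulated and 6 downregulated at 48 h. Of the 16515 genes tested, 13.9% were upregulated and 3.35% downregulated, which puts the members' 11.9% and 8.96% beside those shares. By adjusted p alone, 20 members rose and 29 fell, 29.9% and 43.3%, against 37.0% and 31.6% of all genes. The median log2 fold change was -0.05 over the members and 0.03 over all genes. By family the EW8 medians ran from -1.04 for the chaperonin pair, -0.85 for HSP90, -0.78 for its pseudogenes and -0.47 for HSPA to -0.03 for DNAJC, 0.08 for DNAJA, 0.32 for HSPB and 0.48 for DNAJB. Many members are highly expressed, and highly expressed genes as a whole were more often lower in EW8 at 48 h: of 2416 genes averaging at least 100 CPM, 56.0% fell, beside 14 of 21 members (66.7%). Scaled by total counts in place of TMM, the median of all genes in EW8 moved from 0.03 to 0.16, and the members' counts became 10 upregulated and 3 downregulated, with 26 risen and 21 fallen. Of all genes, 16.1% were upregulated, 2.09% downregulated, 43.6% risen and 24.4% fallen by that scaling. The members' median turned from -0.05 to 0.07.

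In TC71 no member passed the fold threshold in either direction by edgeR, and none did at an unadjusted p below 0.05 or by DESeq2. Of all genes, 3.26% were upregulated and 0.854% downregulated there. By adjusted p alone, 16 members rose and 13 fell (23.9% and 19.4%), against 22.9% and 19.2% of all genes. The members' median log2 fold change was -0.05, and the family medians lay between -0.27 for the chaperonin pair and 0.18 for DNAJB, with 5 of 9 DNAJB genes risen and 0 fallen by edgeR, by DESeq2 or at an unadjusted p below 0.05. Without TC71 0 h replicate 1, DNAJB5 reached a log2 fold change of 1.0. HSPA12A, whose 3 to 22 counts per TC71 library did not pass the filter with all libraries, passed it and was called when EW8 0 h replicate 2, any EW8 48 h replicate, TC71 0 h replicate 3 or TC71 48 h replicate 2 was left out, with log2 fold changes from 1.01 to 1.26. By total counts, 21 members rose and 7 fell in TC71, while 28% of all genes rose and 14.2% fell.

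The lines share no library. Of the 29 members that fell in EW8, 12 also fell in TC71 (41.4%), and these were 92.3% of the 13 that fell in TC71. Over all genes the corresponding shares were 45.2% and 74.4%, and over those with at least 100 CPM on average 58.6% and 85.4%. Of the 20 that rose in EW8, 11 also rose in TC71 (55.0%), or 68.8% of the 16 there, against 47.6% and 76.9% over all genes. DNAJC24, a gene of diphthamide synthesis, fell in TC71 (log2 fold change -0.21, SE 0.07, adjusted p = 0.0218) and was at -0.02 in EW8. That TC71 call was lost by total counts (-0.16), by DESeq2 and without TC71 0 h replicate 1 (-0.17) or TC71 48 h replicate 1 (-0.19). Of 25 members that passed in both lines, 2 moved in opposite directions (8.0%) and 24 had the larger absolute change in EW8 (96.0%), against 8.11% and 85.6% of the 5731 genes that did so.

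**Figure D2:**
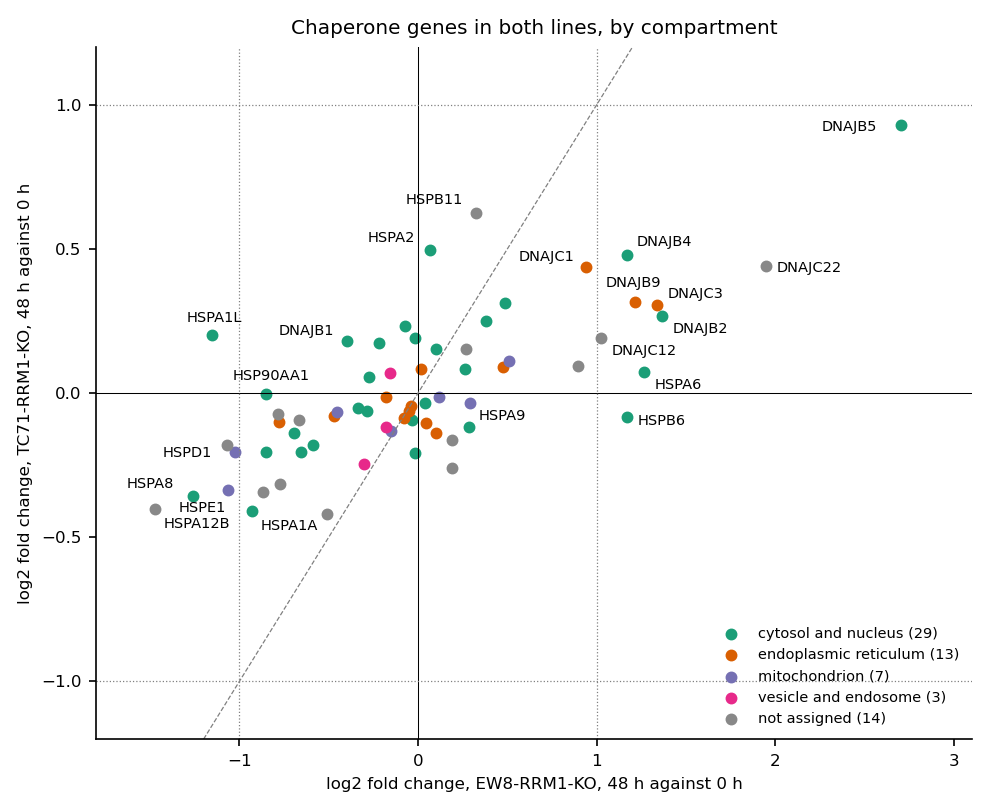
Log2 fold change at 48 h against 0 h in EW8-RRM1-KO (x axis) and TC71-RRM1-KO (y axis) for 66 tested members, 1 point each, coloured by compartment with the number of members in brackets; DNAJC15, with at most 2 counts in any EW8 library, is left out. Dotted lines mark a fold of 2 and the dashed line equal change; no point lies beyond a fold of 2 on the y axis, while DNAJB5 reaches 2.70 and HSPA8 -1.26 on the x axis.

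All 3 HSP90 genes were lower in EW8 at 48 h, where 31.6% of all genes and 56.0% of those averaging at least 100 CPM fell. HSP90AA1, the stress-inducible cytosolic HSP90, was at 4109, 3759.6 and 4303 CPM at 0 h and 2208, 2336 and 2214 CPM at 48 h. Every 48 h library lay below every 0 h library (log2 fold change -0.85, SE 0.04, adjusted p = 2.18e-18), a 1.80-fold decrease. In TC71 HSP90AA1 was at 2587, 2503 and 2614 CPM at 0 h and 2457, 2638 and 2585 CPM at 48 h, and the groups overlapped (log2 fold change -0.00, SE 0.04, adjusted p = 0.942). HSP90AB1, the constitutive cytosolic HSP90, was at 3500.0, 3435 and 3531 CPM at 0 h and 1927, 1979 and 1897 CPM at 48 h in EW8. Its groups were apart (log2 fold change -0.85, SE 0.03, adjusted p = 2.24e-22). In TC71 it was at 2493, 2505 and 2488 CPM at 0 h and 2145, 2189 and 2157 CPM at 48 h, again apart but by less (log2 fold change -0.21, SE 0.03, adjusted p = 1.85e-06). HSP90B1, the HSP90 of the ER lumen also named GRP94, fell by less in EW8 (log2 fold change -0.18, SE 0.04, adjusted p = 0.000110) and stood at -0.01 in TC71 (adjusted p = 0.828). By total counts HSP90B1 was at -0.06 in EW8 and did not pass.

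Of the 8 HSP90 pseudogene rows, 6 were tested, 5 fell in EW8 and 1, HSP90AB3P, fell in TC71 (log2 fold change -0.31, SE 0.11, adjusted p = 0.0262). Of all genes, 31.6% fell in EW8 and 19.2% did in TC71. That TC71 call was lost by total counts, by DESeq2 and without TC71 0 h replicate 1, TC71 0 h replicate 2 or TC71 48 h replicate 3, with values from -0.31 to -0.26. HSP90AA2P, HSP90AA4P and HSP90AA6P stood at -0.78, -0.87 and -0.67 in EW8, all fallen, of which HSP90AA6P did not pass by total counts (-0.54), by DESeq2 or without EW8 0 h replicate 2 or 3 or EW8 48 h replicate 2 or 3, and HSP90B2P, at 0.19, did not pass. Without EW8 48 h replicate 1, HSP90AA4P was at -1.08 and past a fold of 2. HSP90AB2P, at 1.97, 1.55 and 1.10 CPM at 0 h and 0.744, 0.501 and 0.881 CPM at 48 h, was past a fold of 2 in EW8 (log2 fold change -1.07, SE 0.29, adjusted p = 0.00139), but at -0.87 without EW8 0 h replicate 1, at -0.87 without EW8 48 h replicate 2 and at -0.94 by total counts. How reads that match both a pseudogene and its parent were counted is not given in the sources used here, so these rows are uncertain. Of the 100-base stretches of HSP90AA2P, 3.34% occur unchanged in HSP90AA1, and of HSP90AB3P 1.98% in HSP90AB1.

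Among the 13 tested HSPA genes, 7 fell (53.8%) and 2 rose (15.4%) in EW8, against 31.6% and 37.0% of all genes, with a median log2 fold change of -0.47. HSPA8 (HSC70, ENSG00000109971, chromosome 11, 123057489 to 123063230, - strand), the constitutive cytosolic HSP70, was at 3195, 2972 and 3427 CPM at 0 h and 1328, 1368 and 1313 CPM at 48 h. The groups lay far apart, a 2.39-fold decrease (log2 fold change -1.26, SE 0.04, adjusted p = 4.57e-24). In TC71 HSPA8 was at 2264, 2187 and 2303 CPM at 0 h and 1721, 1754 and 1798 CPM at 48 h, apart as well and 1.28-fold lower (log2 fold change -0.36, SE 0.04, adjusted p = 3.45e-09). The stress-inducible pair HSPA1A and HSPA1B fell in both lines. HSPA1A was at 23.5, 24.5 and 26.5 CPM at 0 h and 12.2, 14.6 and 12.4 CPM at 48 h in EW8 (log2 fold change -0.93, SE 0.08, adjusted p = 6.80e-13) and at 26.3, 25.4 and 26.8 CPM at 0 h and 19.7, 19.1 and 20.2 CPM at 48 h in TC71 (log2 fold change -0.41, SE 0.07, adjusted p = 9.21e-06). HSPA1B stood at -0.59 in EW8 and -0.18 in TC71 on the log2 scale, but 72.8% of its 100-base stretches occur in another gene, 68.9% in HSPA1A, so the split of reads within the pair is uncertain. The HSPA1B call in TC71 was lost by total counts (-0.13), by DESeq2, when genes of low counts were kept, and without TC71 0 h replicate 2 or 3, any TC71 48 h replicate, or EW8 48 h replicate 1 or 3. HSPA1A passed a fold of 2 in EW8 without EW8 0 h replicate 1 (-1.0) or EW8 48 h replicate 2 (-1.02).

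The nucleotide exchange factors went both ways. HSPA4, an HSP110 in spite of its name, fell in EW8 (log2 fold change -0.66, SE 0.04, adjusted p = 4.40e-16) and TC71 (-0.20, SE 0.04, adjusted p = 8.14e-05). HSPH1, the main HSP110, was at 464, 418 and 476 CPM at 0 h and 524, 560.0 and 549 CPM at 48 h in EW8, where it rose (log2 fold change 0.27, SE 0.04, adjusted p = 6.30e-07), and its log2 fold change in TC71 was 0.08 (SE 0.04, adjusted p = 0.0999). HSPH1 passed in TC71 by total counts (0.13), with that line fitted alone (0.09) and without EW8 0 h replicate 2 (0.09). HSPA14, a ribosome-associated HSP70, rose in both lines, by 0.38 in EW8 and 0.25 in TC71, although 9.16% of its 100-base stretches also belong to MSANTD7. HSPA4L, the third HSP110, was at 0.10 (SE 0.05, adjusted p = 0.0771) on the log2 scale in EW8, where it passed by total counts (0.23). It rose in TC71 (0.15, SE 0.05, adjusted p = 0.0144), though not without TC71 0 h replicate 2, TC71 48 h replicate 2 or TC71 48 h replicate 3 (0.11, 0.13 and 0.14). HSPA9, the mitochondrial HSP70, rose in EW8 (log2 fold change 0.29, SE 0.04, adjusted p = 1.63e-08) and was at -0.04 (SE 0.04, adjusted p = 0.455) in TC71.

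The remaining calls of the HSPA family were made at low levels. HSPA1L, best known from testis, was at 0.964, 1.15 and 1.43 CPM at 0 h and 0.691, 0.501 and 0.440 CPM at 48 h in EW8, where it was downregulated (log2 fold change -1.15, SE 0.28, adjusted p = 0.000580), and at 1.86, 1.57 and 1.78 CPM at 0 h and 1.83, 1.90 and 2.26 CPM at 48 h in TC71, where its groups overlapped. Without EW8 0 h replicate 3 its EW8 value was -0.97. HSPA12B, known from endothelium, was downregulated in EW8 (log2 fold change -1.47, SE 0.40, adjusted p = 0.00166) on 8 to 26 counts a library at 0 h and 4 to 7 at 48 h. HSPA2, another testis gene, rose in TC71 (log2 fold change 0.49, SE 0.17, adjusted p = 0.0221) from 1.68, 1.81 and 1.86 to 2.71, 2.39 and 2.44 CPM, a call lost by DESeq2 (0.50) and without TC71 0 h replicate 1 (0.45) or TC71 48 h replicate 1 (0.44). HSPA6, which is strictly stress-induced, had 1 to 7 counts a library in EW8 at 0 h and 5 to 8 at 48 h, and its change did not pass the test (log2 fold change 1.26, SE 0.64, adjusted p = 0.0802) except without EW8 0 h replicate 1, the library with 7 counts, where it was 2.75. HSPA6 also shares 27.8% of its 100-base stretches with HSPA7.

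The mitochondrial chaperonin fell as a pair. HSPD1 (HSP60, chromosome 2, 197486584 to 197516737, - strand) was at 2165, 2022 and 2214 CPM at 0 h and 1032, 1093 and 1026 CPM at 48 h in EW8, with the groups apart and a 2.03-fold decrease (log2 fold change -1.02, SE 0.04, adjusted p = 1.59e-22). In TC71 it was at 1694, 1657 and 1708 CPM at 0 h and 1406, 1502 and 1478 CPM at 48 h (log2 fold change -0.21, SE 0.04, adjusted p = 2.48e-05). HSPE1 (HSP10, chromosome 2, 197500140 to 197503449, + strand), its lid, was at 85.1, 77.8 and 86.5 CPM at 0 h and 39.1, 40.8 and 39.9 CPM at 48 h in EW8 (log2 fold change -1.06, SE 0.06, adjusted p = 7.86e-18). HSPE1 was at 74.3, 75.2 and 64.7 CPM at 0 h and 55.8, 57.0 and 56.9 CPM at 48 h in TC71 (log2 fold change -0.33, SE 0.05, adjusted p = 5.33e-06), also without overlap. By total counts the EW8 values of HSPD1 and HSPE1 were -0.90 and -0.94, both short of a fold of 2. The genes stand head to head, with 105 bases between their nearest RefSeq starts, and HSPE1 shares exon sequence with the annotated read-through gene HSPE1-MOB4, which was not analysed here.

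The other mitochondrial members went both ways. The 8 of this compartment had a median log2 fold change of -0.09 in TC71. In EW8 the median over those with at least 5 CPM, which leaves out DNAJC15, was -0.15. With DNAJC15, at 2 counts in EW8, it was -0.30, and between -0.35 and -0.0884 with 1 library left out. DNAJC19, a J protein of the import motor, fell in EW8 (log2 fold change -0.45, SE 0.06, adjusted p = 1.63e-08) and was at -0.06 in TC71. DNAJC11, which belongs to the complex that shapes the cristae, fell in both lines by a similar small amount, -0.15 and -0.13, and by total counts it passed the test in neither. DNAJA3 and DNAJC30 rose in EW8, with log2 fold changes of 0.12 (SE 0.04, adjusted p = 0.0102) and 0.51 (SE 0.10, adjusted p = 3.91e-05). They were at -0.01 and 0.11 in TC71. The DNAJA3 call was lost when EW8 was fitted alone (0.09) and without EW8 0 h replicate 1 (0.08), EW8 0 h replicate 2 (0.08) or EW8 0 h replicate 3 (0.09). DNAJC15, the other J protein of import, could not be followed in EW8, where it had 2 counts in all at 0 h and 0 at 48 h. In TC71 it was at 7.11, 7.60 and 6.91 CPM at 0 h and 5.69, 7.09 and 6.96 CPM at 48 h (log2 fold change -0.13, SE 0.12, adjusted p = 0.410).

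HSF1 binds heat shock elements, which are repeats of GAA and its complement TTC in turn with 2 bases between them. Promoter windows from 250 bases before to 50 after a RefSeq start in GRCh38.p14 were at hand for 59 of the 74 members (78 windows). A run of 3 such units, read on both strands, was found in 7 of these 78 windows (8.97%) and in 172 of 35116 windows of all genes (0.490%), and the pair GAANNTTC or TTCNNGAA, which also lies within each run, in 26.9% and 13.5%. The motifs were chosen after expression values were known, and a match is a description of the letters, not a bound site. The matches are shown because the 5 members with the highest levels per kilobase all carry one. Each is read 5′ to 3′ along its gene, and capitals mark the units with the bases between them.
DNAJA1 (chr9:33025268-33025296, + strand): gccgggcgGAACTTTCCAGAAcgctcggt
DNAJB6 (chr7:157336865-157336893, + strand): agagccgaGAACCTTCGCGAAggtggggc
HSP90AA1 (chr14:102087112-102087140, - strand): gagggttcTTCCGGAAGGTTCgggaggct
HSP90AB1 (chr6:44247770-44247798, + strand): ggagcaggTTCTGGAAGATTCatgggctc
HSP90AB1 (chr6:44247823-44247851, + strand): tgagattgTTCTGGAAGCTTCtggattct
HSPA6 (chr1:161524458-161524486, + strand): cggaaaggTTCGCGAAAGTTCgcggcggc
HSPA8 (chr11:123062171-123062199, - strand): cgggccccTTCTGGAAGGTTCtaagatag
HSPA8 (chr11:123062346-123062374, - strand): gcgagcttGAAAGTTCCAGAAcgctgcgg
HSPD1 (chr2:197500062-197500090, - strand): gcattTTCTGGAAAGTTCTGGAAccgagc

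The 7 genes with such a run were DNAJA1, DNAJB6, HSP90AA1, HSP90AB1, HSPA6, HSPA8 and HSPD1, and HSP90AB1 and HSPA8 had 2 runs each. In EW8, 6 of the 7 fell and HSPA6 was the exception, with a median log2 fold change of -0.85. The 6 that fell all averaged more than 100 CPM. At that level 66.7% of members and 56.0% of all genes fell in EW8, against 31.6% of all genes at any level. The 48 tested members that had windows without a run had a median of -0.03, and 17 of them fell while 16 rose. In TC71, 4 of the 7 fell and none rose by edgeR, also at an unadjusted p, with a median of -0.14, where 33.3% of members and 38.5% of all genes averaging at least 100 CPM fell. The run of HSPD1 goes on for a further unit, 18 letters in all, and lies 294 bases upstream of the HSPE1 start and so outside the HSPE1 window. In GENCODE, exons of 2 of the 3 DNAJA1 transcripts, of 2 and 1 of the 24 HSPA8 transcripts and of 2 of the 24 HSPD1 transcripts lie over the matches, and the other matches lie outside their gene's exons. For comparison, the AP-1 motif TGANTCA was found in 5.13% of member windows and 7.71% of all windows, and the cyclic AMP response element TGACGTCA in 3.85% and 1.85%.

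On the list of 12 members known as HSF1 targets, 9 fell and 1 rose in EW8 (median log2 fold change -0.64) and 6 fell and 2 rose in TC71 (median -0.07). Of all genes, 31.6% fell in EW8 and 19.2% in TC71, and of those with at least 100 CPM on average 56.0% and 38.5%. Those that fell in EW8 were HSPA1A, HSPA1B, HSPA8, HSPB1, HSP90AA1, HSPD1, HSPE1, DNAJA1 and DNAJB1, and the one that rose was HSPH1. DNAJB1, the best known HSP40, was at 77.8, 73.6 and 84.4 CPM at 0 h and 59.4, 57.4 and 62.6 CPM at 48 h in EW8 and at 70.4, 68.7 and 71.3 CPM at 0 h and 79.0, 77.5 and 81.8 CPM at 48 h in TC71. It fell in EW8 (log2 fold change -0.40, SE 0.05, adjusted p = 2.85e-08) and rose in TC71 (log2 fold change 0.18, SE 0.05, adjusted p = 0.00407), with no overlap in either line. HSPB1 fell in EW8 (log2 fold change -0.27, SE 0.10, adjusted p = 0.0272), but this call was lost by total counts (-0.15) and without EW8 0 h replicate 2, EW8 48 h replicate 2 or EW8 48 h replicate 3, at -0.24, -0.23 and -0.26. The list is part of the members and was written with results of these data known.

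**Figure D3:**
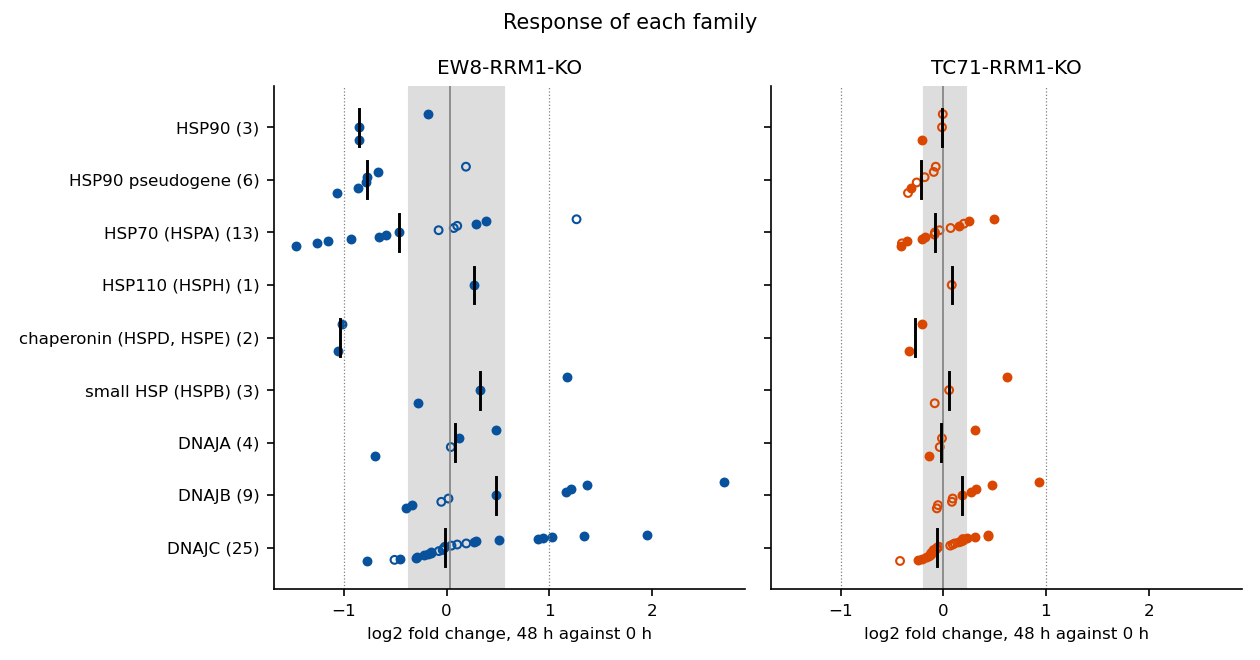
Log2 fold change at 48 h against 0 h of each tested member (points) by family in EW8-RRM1-KO (left) and TC71-RRM1-KO (right), with the number of members in brackets; filled points passed an adjusted p below 0.05, black bars are family medians, the grey band is the middle 50% of all 16515 genes and dotted lines mark a fold of 2. DNAJC15 is left out. In EW8 the medians of HSP90, its pseudogenes, HSPA and the chaperonin pair are -0.85, -0.78, -0.47 and -1.04, and the highest points belong to DNAJB (DNAJB5, 2.70) and DNAJC (DNAJC22, 1.95).

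The J-protein families held 7 of the 8 members upregulated in EW8. Of their 39 tested genes, 15 rose (38.5%) and 11 fell (28.2%) there, against 37.0% and 31.6% of all genes. The 7 upregulated are 17.9% of them, against 13.9% of all genes. None was downregulated by edgeR, by DESeq2 or at an unadjusted p below 0.05, while of the 22 tested heat shock protein genes 1 was upregulated (4.55%) and 5 were downregulated (22.7%), against 13.9% and 3.35% of all genes. Of these 5, HSPD1 (-0.90) and HSPE1 (-0.94) fell short of a fold of 2 by total counts, and HSPA1L and HSPA12B had low counts. The 1 upregulated was HSPB6, with at most 9 counts in an EW8 library. DNAJB5, a cytosolic J protein (chromosome 9, 34989641 to 34998900, + strand), had the largest rise in both lines. It was at 7.31, 8.08 and 8.11 CPM at 0 h and 46.7, 50.3 and 56.0 CPM at 48 h in EW8, a 6.50-fold rise with the groups far apart (log2 fold change 2.70, SE 0.09, adjusted p = 1.47e-21). In TC71 it went from 16.8, 13.2 and 16.1 to 28.9, 27.2 and 32.1, a 1.91-fold rise (log2 fold change 0.93, SE 0.08, adjusted p = 1.53e-10). DNAJB2, which passes ubiquitinated clients to the proteasome, was at 26.5, 27.2 and 27.8 CPM at 0 h and 69.8, 70.2 and 70.4 CPM at 48 h in EW8, with close replicates and no overlap (log2 fold change 1.37, SE 0.05, adjusted p = 6.96e-22). In TC71 DNAJB2 rose by 0.27 on the log2 scale. DNAJB4, another cytosolic J protein, was at 29.2, 24.1 and 31.8 CPM at 0 h and 61.7, 65.7 and 65.8 CPM at 48 h in EW8 (log2 fold change 1.17, SE 0.07, adjusted p = 7.32e-14) and at 31.0, 30.3 and 32.3 CPM at 0 h and 39.4, 46.5 and 44.5 CPM at 48 h in TC71 (log2 fold change 0.48, SE 0.07, adjusted p = 5.72e-06), rising in both lines without overlap.

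The cytosolic DNAJA genes split. DNAJA1 fell in EW8 from 469, 426 and 497 to 285, 291 and 285 CPM (log2 fold change -0.69, SE 0.04, adjusted p = 9.20e-16) and in TC71 (log2 fold change -0.14, SE 0.04, adjusted p = 0.00903), a call that total counts (-0.09) and leaving out TC71 48 h replicate 1 (-0.11) removed. DNAJA4 rose in both, by 0.48 and 0.31, and DNAJA2 passed in neither, at 0.04 and -0.03, except in EW8 by total counts (0.17). DNAJB6, which keeps aggregation-prone proteins soluble, fell in EW8 (log2 fold change -0.34, SE 0.04, adjusted p = 1.51e-08). DNAJC21, a factor of ribosome assembly, like DNAJB1 fell in EW8 (-0.22) and rose in TC71 (0.17). Over the 29 members of cytosol and nucleus, 8 rose and 13 fell in EW8 (median -0.03) and 10 rose and 7 fell in TC71 (median 0.06), and by total counts the EW8 median turned to 0.09. Over members of at least 5 CPM the TC71 median was -0.0043. The shares over all genes are 37.0% higher and 31.6% lower for EW8, and 22.9% and 19.2% for TC71. The DNAJC21 call was lost by total counts in EW8 (-0.10) and without TC71 0 h replicate 2 or TC71 48 h replicate 2 in TC71 (0.13 and 0.14).

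**Figure D4:**
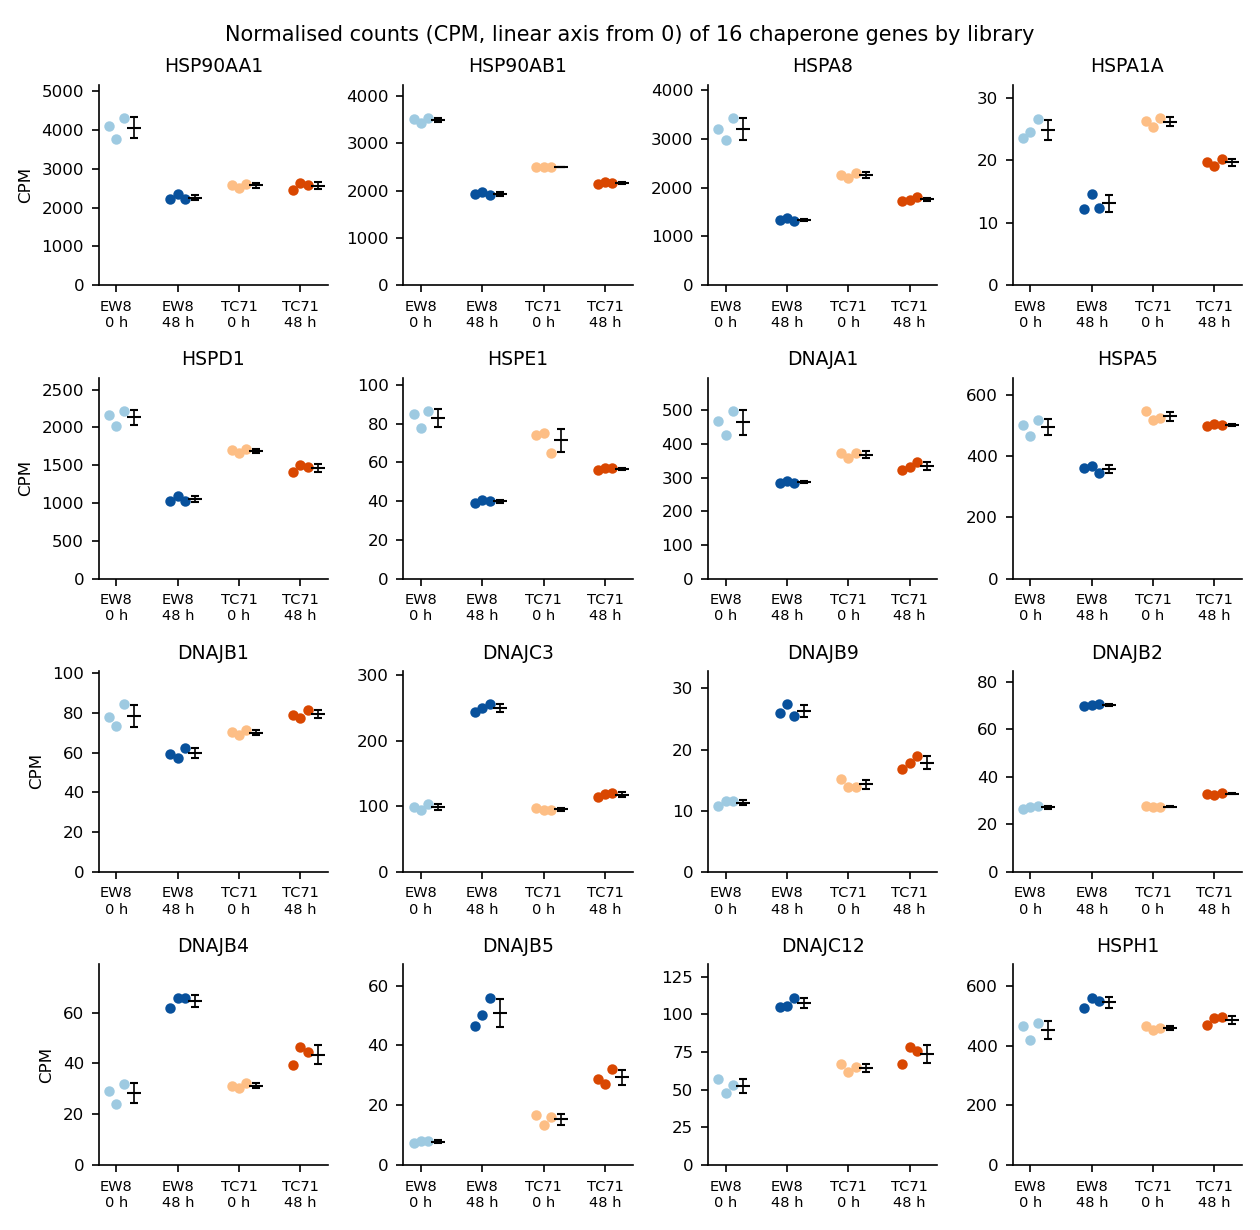
CPM (y axis, linear from 0) of 16 members in each of the 12 libraries (points, 3 for each line and time on the x axis), with the group mean and SD as black marks. HSP90AA1, HSP90AB1, HSPA8, HSPA1A, HSPD1, HSPE1, DNAJA1 and HSPA5 are lower in EW8 at 48 h than at 0 h, DNAJC3, DNAJB9, DNAJB2, DNAJB4, DNAJB5, DNAJC12 and HSPH1 are higher, and DNAJB1 is lower in EW8 and higher in TC71.

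Members of the ER also split. DNAJC3 (chromosome 13, 95677139 to 95794988, + strand), the ER co-chaperone P58IPK that the unfolded protein response induces, was at 99.0, 93.6 and 103 CPM at 0 h and 243, 251 and 255 CPM at 48 h in EW8, a 2.53-fold rise with wide separation (log2 fold change 1.34, SE 0.04, adjusted p = 5.78e-24). In TC71 DNAJC3 was at 96.9, 93.7 and 94.7 CPM at 0 h and 114, 119 and 120.4 CPM at 48 h (log2 fold change 0.31, SE 0.04, adjusted p = 6.68e-07). DNAJB9 (ERdj4), which binds misfolded ER proteins and the stress sensor IRE1, was at 10.8, 11.6 and 11.6 CPM at 0 h and 26.1, 27.4 and 25.4 CPM at 48 h in EW8 (log2 fold change 1.22, SE 0.08, adjusted p = 4.13e-16) and at 15.2, 13.9 and 13.9 CPM at 0 h and 16.8, 17.9 and 18.9 CPM at 48 h in TC71 (log2 fold change 0.32, SE 0.07, adjusted p = 0.000653). Both genes were thus higher at 48 h in each line without overlap, while 71.1% of all genes in EW8 and 49.6% in TC71 had no overlap in either direction. DNAJC1 (ERdj1) rose in EW8 (log2 fold change 0.94, SE 0.06, adjusted p = 8.59e-16) and TC71 (log2 fold change 0.44, SE 0.06, adjusted p = 1.02e-07), and DNAJB12, a J protein of the ER membrane, rose in EW8 (log2 fold change 0.48, SE 0.06, adjusted p = 4.20e-09) and stood at 0.09 in TC71.

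The main ER chaperone fell instead. HSPA5, also named BiP or GRP78 (chromosome 9, 125234853 to 125241382, - strand), was at 502, 467 and 519 CPM at 0 h and 363, 368 and 345 CPM at 48 h in EW8, apart and 1.38-fold lower (log2 fold change -0.47, SE 0.04, adjusted p = 8.47e-13). In TC71 it was at 548, 520.2 and 524 CPM at 0 h and 499, 505 and 503 CPM at 48 h (log2 fold change -0.08, SE 0.04, adjusted p = 0.0893), which did not pass the test with all libraries and passed it without EW8 0 h replicate 2 or 3. DNAJC14 fell in EW8 (log2 fold change -0.78, SE 0.06, adjusted p = 9.34e-14) and was at -0.10 in TC71, although 20.5% of its 100-base stretches also belong to an overlapping annotated gene. The remaining ER members did not pass the test in EW8: HSPA13 (-0.08), DNAJB14 (-0.05), DNAJC18 (-0.04), DNAJB11 (0.02), DNAJC10 (0.05) and DNAJC16 (0.10). In TC71 these lay between -0.14 for DNAJC16 and 0.08 for DNAJB11. DNAJB11, DNAJC10 and DNAJC16 passed in EW8 by total counts, at 0.14, 0.17 and 0.23, and HSPA13 without EW8 0 h replicate 2 (-0.16). In TC71, DNAJC10 and DNAJC16 passed without EW8 0 h replicate 1, EW8 0 h replicate 3, TC71 0 h replicate 2 or TC71 48 h replicate 2, at -0.15 to -0.12 and -0.19 to -0.15, and DNAJB11 and DNAJB12 by total counts, at 0.14 and 0.14. Over the 13 ER members, 4 rose (30.8%) and 3 fell (23.1%) in EW8 (median 0.02), against 37.0% and 31.6% of all genes. In TC71, 3 rose (23.1%, median -0.04), against 22.9% of all genes. There 0 fell by edgeR or DESeq2, against 19.2% of all genes by edgeR, and 3 lay below 0 at an unadjusted p below 0.05. The EW8 median was -0.05 without EW8 0 h replicate 2, and the TC71 median 0.0066 by total counts.

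On the list of 7 members known to be induced by ER stress, DNAJB9 and DNAJC3 rose in EW8, HSPA5 and HSP90B1 fell, and HSPA13, DNAJB11 and DNAJC10 passed in neither direction (median 0.02), of which DNAJB11 and DNAJC10 passed by total counts. The 2 of each direction are 28.6% of the list, against 37.0% of all genes risen and 31.6% fallen. The HSP90B1 call was lost by total counts (-0.06). In TC71 DNAJB9 and DNAJC3 rose (28.6% of the list, against 22.9% of all genes) and the other 5 did not pass (median -0.01). The windows of HSPA5 and HSP90B1 hold the ER stress element, CCAAT and CCACG with 9 bases between them on either strand. Both genes averaged more than 100 CPM, a level at which 56.0% of all genes fell in EW8. The element was found in 2 of the 78 member windows and in 27 of 35116 windows of all genes (0.0769%). HSP90B1 held it once on each strand, and exons of 1 and 3 of its 35 GENCODE transcripts lie over these matches. The windows of the other 5 genes of the list, DNAJB9 and DNAJC3 among them, held no match. Sequences are read 5′ to 3′ along the gene with the element in capitals.
HSP90B1 (chr12:103930211-103930239, + strand): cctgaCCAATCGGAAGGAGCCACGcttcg
HSP90B1 (chr12:103930316-103930344, + strand): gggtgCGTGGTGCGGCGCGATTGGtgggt
HSPA5 (chr9:125241386-125241414, - strand): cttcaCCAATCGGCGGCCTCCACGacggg

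**Figure D5:**
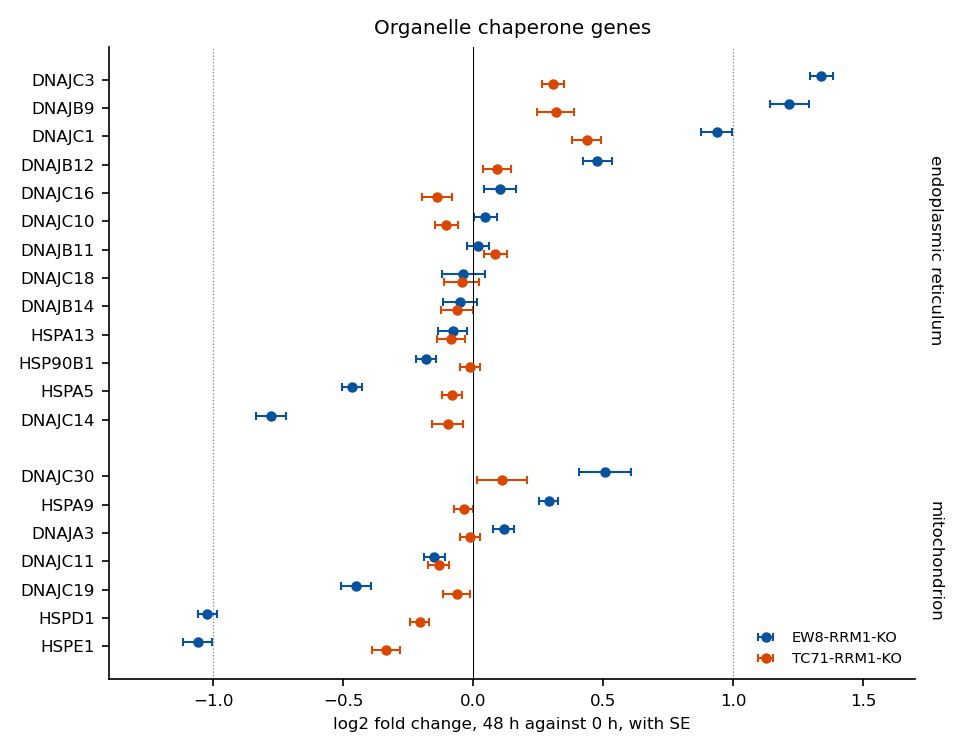
Log2 fold change at 48 h against 0 h (x axis) with its SE for the 13 ER members (upper part) and 7 of the 8 mitochondrial members (lower part) in EW8-RRM1-KO (blue) and TC71-RRM1-KO (orange); DNAJC15 is left out and dotted lines mark a fold of 2. DNAJC3 and DNAJB9 lie right of the line for a fold of 2 in EW8 and HSPD1 and HSPE1 left of it, while all TC71 points lie between -0.33 and 0.44.

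Of the DNAJC genes without an assigned compartment, DNAJC12, a partner of the aromatic amino acid hydroxylases, was at 57.0, 47.9 and 53.0 CPM at 0 h and 105, 106 and 111 CPM at 48 h in EW8 (log2 fold change 1.02, SE 0.06, adjusted p = 1.48e-16) and at 66.9, 61.8 and 64.9 CPM at 0 h and 67.1, 78.1 and 76.0 CPM at 48 h in TC71 (log2 fold change 0.19, SE 0.06, adjusted p = 0.00719). It stood at the edge of the fold threshold, with 0.93 without EW8 0 h replicate 2, 0.99 without EW8 0 h replicate 3, 0.998 without EW8 48 h replicate 3 and 0.995 when EW8 was fitted alone. DNAJC22 was at 1.62, 1.55 and 1.65 CPM at 0 h and 7.66, 5.92 and 5.24 CPM at 48 h in EW8, a 3.86-fold rise (log2 fold change 1.95, SE 0.15, adjusted p = 1.90e-13), and at 9.94, 10.4 and 11.1 CPM at 0 h and 14.2, 14.4 and 14.2 CPM at 48 h in TC71 (log2 fold change 0.44, SE 0.09, adjusted p = 0.000187). DNAJC25 rose in EW8 (log2 fold change 0.89, SE 0.08, adjusted p = 9.76e-12) and was at 0.09 in TC71, with 9.30% of its 100-base stretches shared with the read-through gene DNAJC25-GNG10. DNAJC27 rose in EW8 (0.27, SE 0.10, adjusted p = 0.0195), but did not pass by DESeq2 or without EW8 0 h replicate 1, EW8 0 h replicate 3 or EW8 48 h replicate 2 (0.20, 0.18 and 0.17). DNAJC4 and DNAJC28 passed in neither line, at 0.19 and -0.51 in EW8 and -0.16 and -0.42 in TC71, but DNAJC4 passed in EW8 by total counts (0.32). Among the nuclear and cytosolic DNAJC genes, DNAJC2, which works at the ribosome, rose in EW8 (0.29, SE 0.06, adjusted p = 2.27e-05) and DNAJC8, of the spliceosome, fell (-0.29, SE 0.05, adjusted p = 2.14e-06), DNAJC9, a histone chaperone, rose in TC71 (0.23, SE 0.07, adjusted p = 0.00532), and DNAJC7 and DNAJC17 passed in neither line with all libraries and TMM scaling. In TC71, DNAJC17 passed by total counts (0.24), by DESeq2 size factors, in the fit that was not robust and without EW8 0 h replicate 2 or TC71 48 h replicate 2, and DNAJC7 without TC71 48 h replicate 3 (-0.15).

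The members of vesicles and endosomes that passed the filter fell by small amounts in EW8, with a median log2 fold change of -0.18, or -0.06 by total counts, by which none of the 3 passed the test. Of all genes, 31.6% fell in EW8, and 19.2% in TC71. They are DNAJC6, the auxilin that uncoats clathrin vesicles (-0.30, SE 0.12, adjusted p = 0.0226), DNAJC13 of the endosome (-0.18, SE 0.05, adjusted p = 0.000903) and DNAJC5, the cysteine string protein of secretory vesicles (-0.16, SE 0.05, adjusted p = 0.00407), all as log2 fold changes. In TC71 the values in the same order were -0.25 (SE 0.08, adjusted p = 0.00981), -0.12 (SE 0.05, adjusted p = 0.0424) and 0.07 (SE 0.05, adjusted p = 0.238), and DNAJC6 did not pass there without TC71 0 h replicate 1 (-0.22). In EW8 DNAJC6 did not pass without EW8 0 h replicate 1 (-0.27) or EW8 48 h replicate 2 (-0.25). The DNAJC13 call in TC71 was lost by total counts, by DESeq2 and without TC71 0 h replicate 1 or 3 or TC71 48 h replicate 1 or 3, with log2 fold changes from -0.12 to -0.07. Of the genes grouped as HSPB by name, HSPB11, which serves in intraflagellar transport, rose in both lines. It was at 36.0, 35 and 33.9 CPM at 0 h and 50.3, 56.2 and 55.2 CPM at 48 h in TC71 (log2 fold change 0.62, SE 0.06, adjusted p = 4.24e-10) and had the smaller change in EW8 (log2 fold change 0.32, SE 0.07, adjusted p = 6.96e-05), the 1 member of the 25 passing in both lines of which this was so. HSPB6 (HSP20) was upregulated in EW8 (log2 fold change 1.17, SE 0.51, adjusted p = 0.0407) on 2 to 8 counts a library at 0 h and 7 to 9 at 48 h. That call was lost without EW8 0 h replicate 1 (0.98), EW8 0 h replicate 2 (0.99), EW8 48 h replicate 1 (1.05) or EW8 48 h replicate 3 (1.2), and when tested against a fold of 1.2.

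The responses of the lines were also compared with each other in the same fit. The EW8 minus TC71 difference of the log2 fold changes was above 0 by more than a fold of 2 for 4 members and below 0 for 1. These are 5.97% and 1.49% of those tested, against 7.28% and 0.981% of all genes. The sign is not the size of a change: a gene that fell more in EW8 lies below 0. The 4 were DNAJB5 (difference 1.77, SE 0.12, adjusted p = 1.15e-12), DNAJC22 (1.51, SE 0.18, adjusted p = 1.76e-08), DNAJB2 (1.10, SE 0.08, adjusted p = 7.24e-14) and DNAJC3 (1.03, SE 0.06, adjusted p = 1.82e-15), given as EW8 minus TC71. The difference below 0 was that of HSPA1L (-1.36, SE 0.34, adjusted p = 0.00126), which fell in EW8. DNAJC3 was at 0.96 without EW8 0 h replicate 2. A second member joined HSPA1L when 1 library was left out: HSPA12B (-1.30) without EW8 0 h replicate 2, and HSP90AB2P without EW8 0 h replicate 3 (-1.16), TC71 0 h replicate 2 (-1.07) or TC71 48 h replicate 3 (-1.06). A further member joined the 4 in the same way: HSPA6 (2.69) without EW8 0 h replicate 1, and HSPB6 without EW8 0 h replicate 3 (1.73), TC71 0 h replicate 3 (1.39) or TC71 48 h replicate 1 (1.48). HSPB6 joined them by total counts as well (1.33). By adjusted p alone the difference was below 0 for 23 members (34.3%) and above 0 for 15 (22.4%), against 22.4% and 25.7% of all genes. Of the 21 members with at least 100 CPM on average, 11 were below 0 (52.4%), against 45.0% of all genes at that level, 3 were above 0 and 7 did not pass. The 4 with the highest levels per kilobase were below 0: HSPA8 (-0.90, SE 0.05, adjusted p = 4.55e-15), HSP90AA1 (-0.84, SE 0.06, adjusted p = 1.55e-13), HSPD1 (-0.82, SE 0.05, adjusted p = 1.11e-14) and HSP90AB1 (-0.64, SE 0.04, adjusted p = 6.77e-14). HSPA9 (0.33, SE 0.05, adjusted p = 3.10e-06) and HSPH1 (0.18, SE 0.06, adjusted p = 0.00872) were above 0, and HSPH1 did not pass without EW8 0 h replicate 2 (0.09).

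With doxycycline present, 6 members were higher in TC71 than in EW8 by more than a fold of 2 (8.96%) and none was higher in EW8 by edgeR, at an unadjusted p below 0.05 or by DESeq2, against 11.9% and 4.77% of all genes. Among the 6, DNAJC15, HSPB6 and HSPA6 had at most 2, 8 and 7 counts in an EW8 library at 0 h. They passed the filter on low counts only through TC71, the line where they are high, so their direction was set by the filter. DNAJC15 stood apart. It had 2 counts in the 3 EW8 libraries together and 513 in those of TC71, a ratio of 288 (95% interval 79.4 to 2387, exact binomial, counting error only). At 48 h, with 0 counts in EW8 and 564 in TC71, it was at least 136-fold higher in TC71, against a floor of 3 counts over the group.

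HSPB6 was at 0.131, 0.115 and 0.244 CPM in EW8 and 2.61, 2.84 and 1.94 in TC71 at 0 h (log2 difference -3.75, SE 0.33, adjusted p = 3.56e-12, EW8 minus TC71). DNAJC22 was at 1.62, 1.55 and 1.65 and 9.94, 10.4 and 11.1 (-2.70, SE 0.14, adjusted p = 1.75e-18), so that its level in EW8 at 48 h lay below that of TC71 at 0 h. The remaining 3 were DNAJC6 (-1.62, SE 0.09, adjusted p = 3.51e-17), HSPA2 (-1.14, SE 0.22, adjusted p = 3.84e-05) and HSPA6 (-2.10, SE 0.54, adjusted p = 0.00100, on 1 to 7 counts in EW8). Of the 21 members with at least 100 CPM on average, 11 were higher in EW8 by adjusted p alone (52.4%), against 57.7% of all genes at that level, and 4 were lower. The 4 with the highest levels per kilobase, HSP90AA1 (0.66, SE 0.04, adjusted p = 1.42e-15), HSPA8 (0.51, SE 0.04, adjusted p = 1.60e-13), HSP90AB1 (0.48, SE 0.03, adjusted p = 1.34e-15) and HSPD1 (0.34, SE 0.04, adjusted p = 5.53e-10), were all higher in EW8 at 0 h, while HSPA9 (-0.33, SE 0.04, adjusted p = 1.02e-09) and HSPA4 (-0.23, SE 0.04, adjusted p = 4.75e-06) were lower. By total counts the median of all genes in this comparison moved from -0.01 to -0.14. These baseline values and the EW8 and TC71 responses use the same 0 h libraries. At 48 h the means of HSPA8 were 1336 ± 28.1 CPM in EW8 and 1758 ± 38.9 in TC71 (SD, n = 3). Without EW8 0 h replicate 3 or TC71 0 h replicate 2, HSP90AB2P was past a fold of 2 in favour of EW8 (1.16 and 1.07) and DNAJB5 in favour of TC71 (-1.0 and -1.07).

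The 7 members that did not pass the filter were DNAJB7, DNAJB13, DNAJC5B, DNAJC5G, HSPA12A, HSP90AA5P and HSP90B3P. Their counts ran from 0 to 22 in a library, and with all libraries in the fit none of the 7 was tested. DNAJB13, known from sperm flagella, had 1 to 6 counts a library in TC71 at 0 h and 6 to 10 at 48 h.

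Genes that work with these chaperones were taken from a list of HSF genes and co-chaperones, of which 54 were in the table and 53 were tested. In EW8, 11 rose (20.8%) and 37 fell (69.8%), against 37.0% and 31.6% of all genes, with a median log2 fold change of -0.26. In TC71 7 rose (13.2%) and 27 fell (50.9%), against 22.9% and 19.2%, with a median of -0.11. Of all genes with at least 100 CPM on average, 56.0% fell in EW8 and 38.5% in TC71. HSF1 itself rose in EW8 (log2 fold change 0.41, SE 0.07, adjusted p = 3.36e-05), with 66.4, 78.1 and 68.8 CPM at 0 h and 102, 90.8 and 88.8 CPM at 48 h, and was at 0.11, SE 0.07 (adjusted p = 0.240) in TC71. HSF2 fell slightly in EW8 (-0.15, SE 0.05, adjusted p = 0.0135) and was at -0.07, SE 0.05 in TC71. In EW8, 2 genes of the list were upregulated and 2 downregulated (3.77% each), against 13.9% and 3.35% of all genes. None passed a fold of 2 in TC71 by edgeR, with or without adjustment of p, where the log2 fold changes of the list lay between -0.74 and 0.38. CCT6A, a subunit of the cytosolic chaperonin TRiC, was downregulated in EW8, at 735, 692 and 746 CPM at 0 h and 351, 364 and 336 CPM at 48 h (-1.05, SE 0.04, adjusted p = 1.35e-22). BAG3, the HSP70 co-chaperone of selective autophagy, was upregulated, at 16, 18.1 and 17.6 CPM at 0 h and 35.3, 36.8 and 33.9 CPM at 48 h (1.04, SE 0.07, adjusted p = 1.52e-15), and rose in TC71 too (0.38, SE 0.06). CCT6B, a relative of CCT6A from testis, was upregulated in EW8 (1.01, SE 0.37, adjusted p = 0.0149), from 0.263, 0.458 and 0.275 CPM at 0 h and 0.798, 0.551 and 0.587 CPM at 48 h, and fell in TC71 (-0.74, SE 0.24, adjusted p = 0.0131).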

How the data were processed

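Poly(A) RNA of 12 samples was sequenced with a stranded kit on a NovaSeq instrument (paired-end, 100 bases). Per the labels and methods, the authors checked reads with FastQC, aligned them with STAR to hg38 and deposited raw read counts per gene; the counting tool, its annotation and its use of strand are not given in the sources used here. The lowest row of the table sums to 21 counts, so rows of fewer counts had been removed by an unstated rule. Samples were grouped by line and time from their titles.

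Counts were filtered over the 4 groups (filterByExpr, minimum count 10, minimum total 15), scaled with TMM and fitted with the robust quasi-likelihood test of edgeR 4.0.16 (R 4.3.3), with 1 coefficient for each group and Benjamini-Hochberg adjustment over 16515 genes. Contrasts were 48 h against 0 h in each line, the difference of these responses, and EW8 against TC71 at 0 h. An adjusted p below 0.05 with a fold above 2, the threshold of the study, made an upregulated or downregulated call. For a risen or fallen gene, a lost call means that the adjusted p alone was no longer below 0.05. The biological coefficient of variation was 4.17%. Alternatives were no filter, DESeq2 size factors, total counts, DESeq2 1.42.0, a replicate block, each line alone, a fit that was not robust, other folds, each library left out, and members of at least 5 CPM; leaving out the HSP90 pseudogenes was added after seeing the data. The procedure was tested on simulated data. Gene positions, exon lengths and transcripts came from GENCODE, and promoter windows from RefSeq.

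The members and gene lists, the compartments among them, were chosen with earlier results of these data known. Members were named by rule if called in any contrast, among the 6 largest rises or falls of a line with at least 20 counts on average in the lower group, among the 8 highest levels per kilobase, in the ER or the mitochondrion, or not tested; HSF1, HSF2 and called co-chaperones were also named, except 1 gene that is not reported here. The remaining tested members were named after their values were seen. Libraries of a group differed by more than counting error (chi-square per gene 1.98 to 9.16), so none was a copy of another.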

Additional observations from a re-analysis of the deposited data

Results flagged for a closer look

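The responses of the lines differed by more than a fold of 2, tested as an interaction in the edgeR fit, for 5 members. As EW8 minus TC71 differences of log2 fold changes, these were 1.77 for DNAJB5, 1.51 for DNAJC22, 1.10 for DNAJB2, 1.03 for DNAJC3 and -1.36 for HSPA1L. DNAJB5, DNAJC22, DNAJB2 and DNAJC3 rose in both lines. HSPA1L fell in EW8 and did not pass the test in TC71, on 9 to 73 counts a library. The lines are single clones, so a difference between lines and one between clones cannot be told apart. Groups of 3 libraries were too small to be searched for a library apart from the others.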

How the results depend on the processing

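Over the 67 tested members and 4 comparisons, no called value reversed its direction under any alternative run. Here a member past both the adjusted p and the fold of 2 in the main fit had to keep both. Any other was read by adjusted p alone. Of 5222 values, 4944 stayed on their side by this reading, though one that did not pass could change sign (HSP90AA1 and HSP90B1 in TC71 by total counts, 0.05 and 0.04). Another 202 no longer passed and 76 newly passed. Members already past the adjusted p that newly passed a fold of 2, such as HSPA1A in EW8, are not among the 76. In the test against a fold of 1.2, 76 values no longer passed (among them HSPB6, HSPA9, HSP90B1 and DNAJA3 in EW8 and HSP90AB1, HSPD1, HSPE1, DNAJB9, DNAJC3 and DNAJC22 in TC71). Of these named values only HSPB6 had been past a fold of 2. By total counts 25 no longer passed and 28 newly did. By total counts, which moved the median of all genes in EW8 from 0.03 to 0.16, 3 members were downregulated in EW8 against 6, 7 fell in TC71 against 13, and the median log2 fold changes of cytosol and nucleus, ER and mitochondrion were 0.0915, 0.14 and -0.18 in EW8 and 0.11, 0.0066 and -0.0443 in TC71. At a fold of 1.5 in place of 2, 10 members were upregulated and 17 downregulated in EW8 (14.9% and 25.4%, against 22.3% and 12.2% of all genes). In TC71, 2 were upregulated by edgeR (2.99%, against 7.36% of all genes). There 0 were downregulated by edgeR, by DESeq2 or at an unadjusted p below 0.05, against 2.80% of all genes by edgeR. The EW8 minus TC71 difference was past that fold above 0 for 8 members and below 0 for 8 (11.9% each, against 13.6% and 5.64%). At 0 h 5 were higher in EW8 and 8 in TC71 (7.46% and 11.9%, against 11.8% and 18.6%). With each line fitted alone the mitochondrial median of EW8 was -0.18. Over members of at least 5 CPM it was -0.15, and the cytosolic median of TC71 was -0.0043.

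Leaving out 1 library gave 6 to 8 members upregulated and 5 to 7 downregulated in EW8, and 0 to 1 upregulated and 9 to 16 fallen in TC71. It gave 1 to 2 members with an EW8 minus TC71 difference below 0 by more than a fold of 2, and 0 to 1 higher in EW8 at 0 h. The medians ran from -0.11 to -0.0112 (cytosol and nucleus), -0.05 to 0.0304 (ER) and -0.35 to -0.0884 (mitochondrion) in EW8, and from 0.0015 to 0.0673 (cytosol and nucleus), -0.0594 to -0.0053 (ER) and -0.11 to -0.0443 (mitochondrion) in TC71. The lowest EW8 medians of cytosol and nucleus, ER and mitochondrion came without EW8 0 h replicate 2 (-0.11, -0.05 and -0.35), and the highest without EW8 48 h replicate 1 for cytosol and nucleus (-0.0112) and, for the mitochondrion, without EW8 0 h replicate 3 (-0.0884). The causes were not tested. Replicate numbers did not pair the libraries (same-number correlations -0.14 to -0.01), and with a replicate block 8 members were upregulated and 6 downregulated in EW8 and 0 in TC71, 28 fell in EW8 and 12 in TC71, HSP90AA6P and DNAJC13 no longer passing. Members under about 10 counts a library, such as HSPB6 and HSPA6 in EW8, are limited by depth.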
